A study of Danio rerio with 10 samples.

Results

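Caudal fin tissue of adult zebrafish was compared between il11ra mutants and wild-type siblings at 24 hours post amputation (hpa), in 3 mutant and 3 wild-type libraries out of the 10 libraries of the series. The mutants carry the CRISPR-Cas9 allele bns251 of il11ra, which encodes the interleukin-11 receptor subunit, and both groups had their caudal fins amputated. The tissue was the stump next to the amputation plane, with 1 fin and so 1 animal in each library, and the sex of the animals was not given in the sources used here. All genes whose normalized count averaged at least 10 over the 6 fins were compared, which took in 16741 of the 22202 genes of the fin table. The comparison asks which pathways and gene families differ in mutant fin stumps, beyond the published set of fin regeneration genes.

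Amputated zebrafish fins regrow all their tissues. A wound epidermis first covers the stump and signals to the cells below it, and mesenchymal cells and osteoblasts of the stump then lose some of their mature features, divide and build a blastema, the growth zone of the new fin. Interleukin-11 is a cytokine of the Il-6 family that binds a private receptor, Il11ra, and signals together with the shared receptor Il6st (gp130), mainly through Jak kinases and the transcription factor Stat3, whose feedback inhibitors are the Socs proteins.

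The 6 libraries each summed to between 3768621 and 3986121 normalized counts, that is, read counts that the authors had divided by a size factor per library and rounded. These sums lie below the minimum number of reads per library that the paper states. Whether the deposited values were transformed further was not settled here. Mutant and wild-type fins lay apart on the first principal component of the log2 values, which held 66.1% of the variance, and the second, with 11.5%, mainly set mutant replicate 1 apart from mutant replicate 2. High values lay close together. No gene exceeded 6719 normalized counts in any fin, and the median size of the log2 fold change fell step by step with level, to 0.15 in the 51 genes averaging 1600 or more, against 0.77 in the 1586 genes averaging between 10 and 20. A small difference in an abundant gene, such as a keratin or a ribosomal protein, therefore does not show equal levels.

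**Figure D1:**
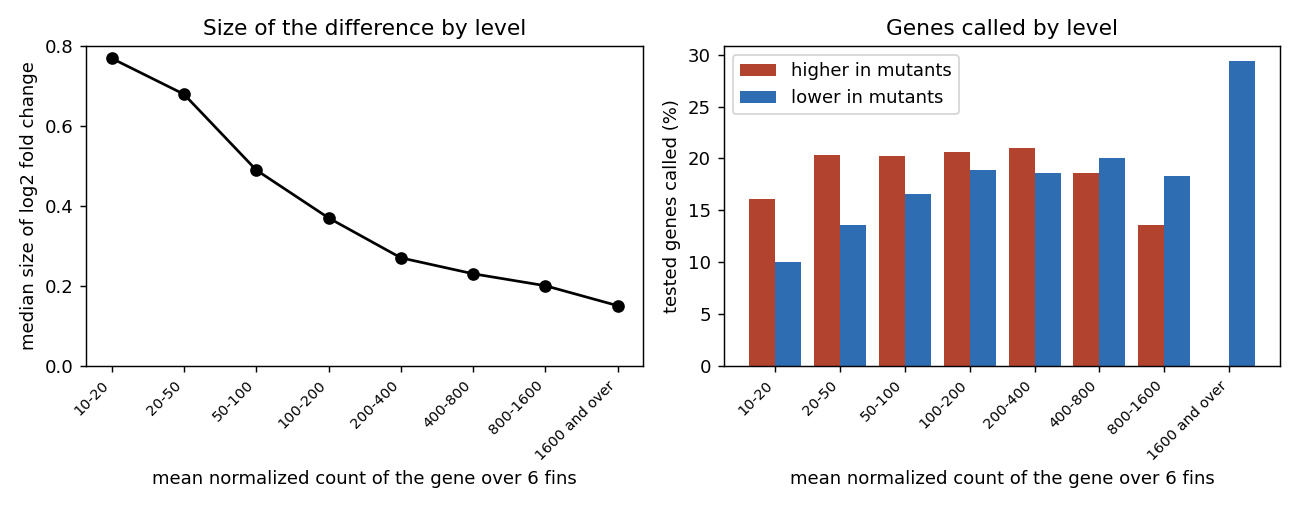
Genes are grouped by their mean normalized count over the 6 fins (x axes). The left panel plots the median size of the log2 fold change of mutant over wild-type fins, which fell from 0.77 in the lowest class to 0.15 in the highest, and the right panel plots the percentage of tested genes called higher (red) or lower (blue) in mutants, with 16.1% and 9.96% in the lowest class and 0 higher against 29.4% lower in the highest.

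The targeted gene was low in every mutant. il11ra, on chromosome 10 from 13305610 to 13396720 on the reverse strand of GRCz11, had 3, 6 and 7 normalized counts in mutant fins, against 65, 80 and 57 in wild-type fins (log2 fold change -3.48 ± 0.35 SE, adjusted p = 0.000644, limma with Benjamini-Hochberg adjustment). Among all genes tested, 3279, 19.6% of those tested, rose in mutants and 2853, 17.0%, fell at an adjusted p under 0.05. The log2 fold change had a median of -0.01 over these genes. Counts of a list or pathway are read against these 2 shares. All gene lists were chosen with earlier results of these data known, so a share above background is a description only. Every fold change is mutant over wild type on the scale of log2(normalized count + 1), and since fins are bulk tissue, fewer cells of a type and less RNA per cell cannot be told apart. With 1 library left out, the shares of all tested genes ran from 14.9% to 16.8% higher and from 9.93% to 15.0% lower. List and pathway counts of 2 or fewer genes moved by at most 2 genes in these fits.

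**Figure D2:**
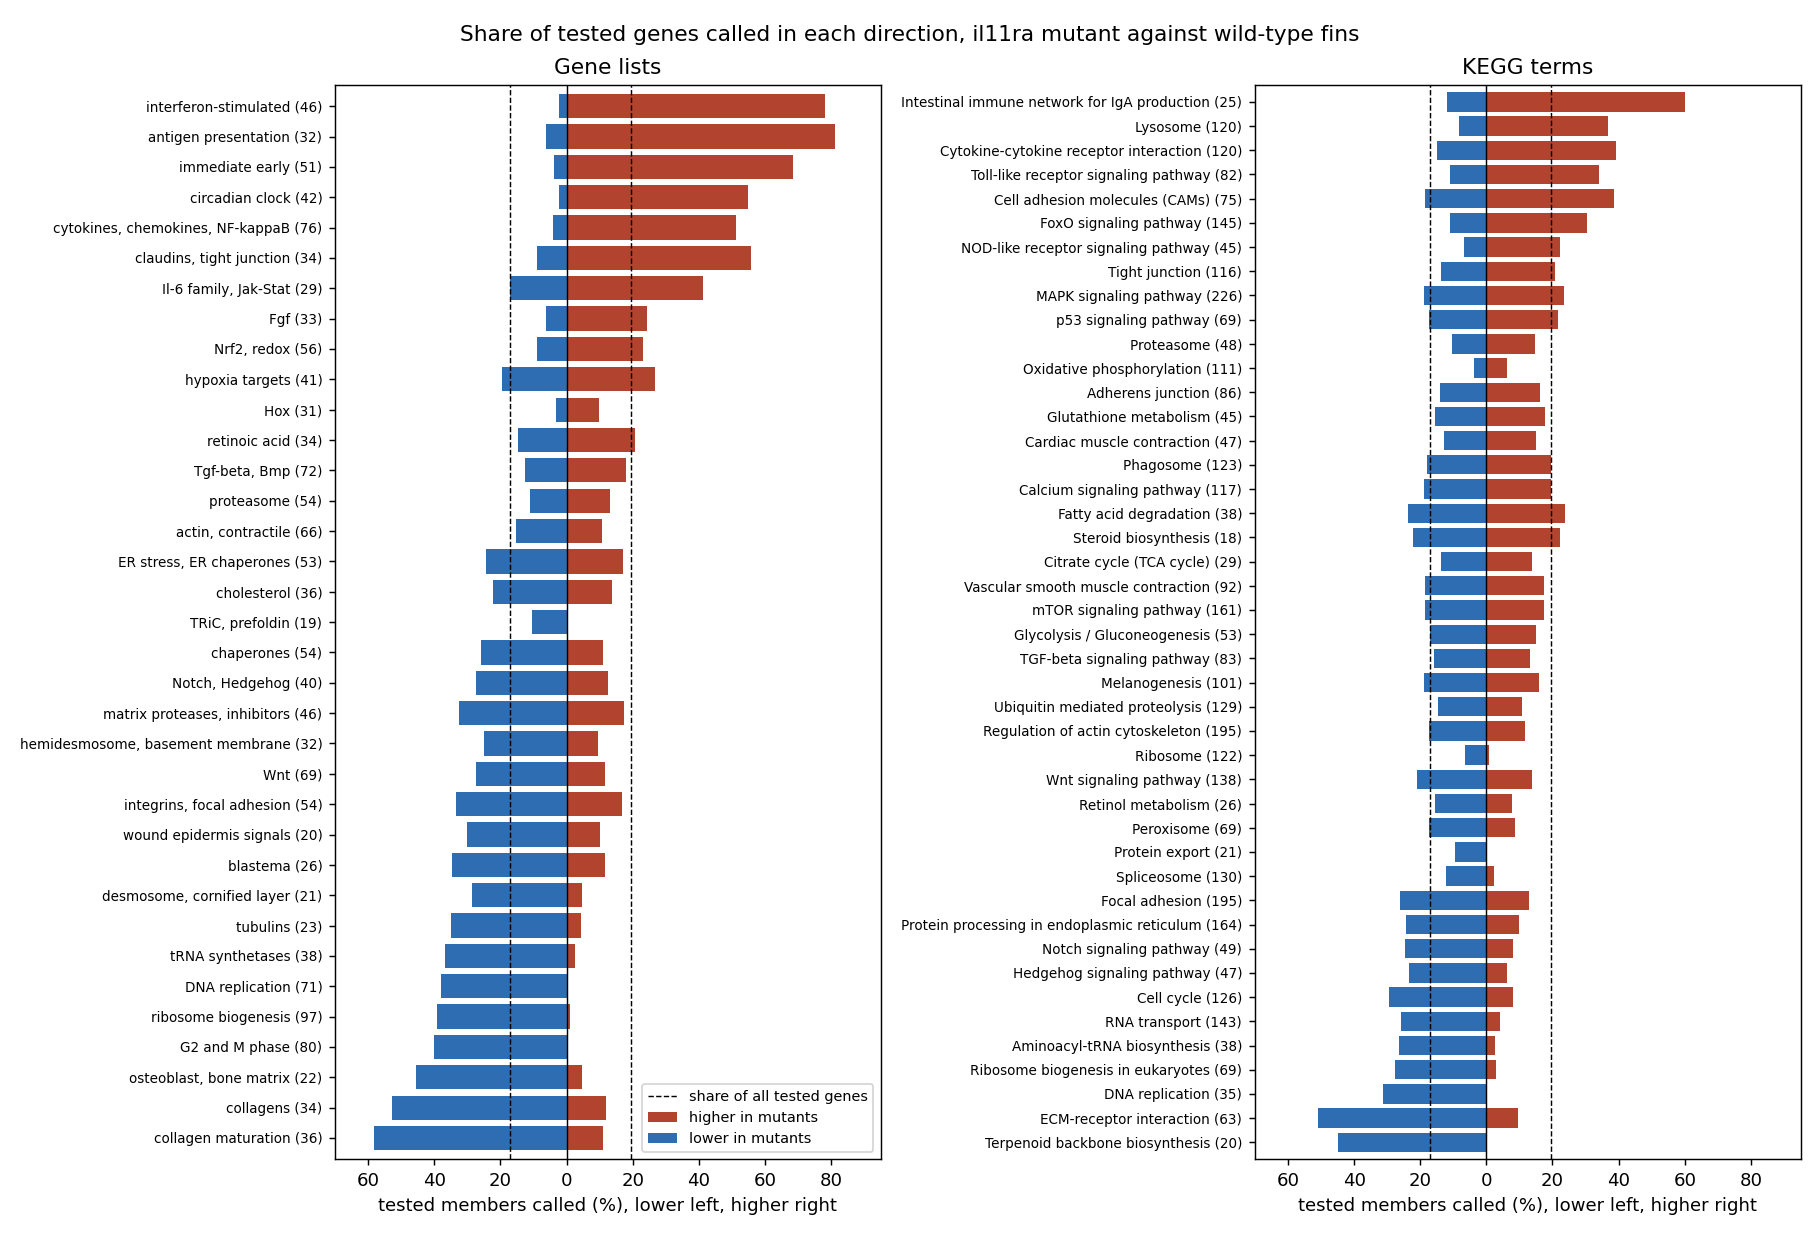
Each bar gives the percentage of the tested members of a gene list (left panel) or KEGG pathway term (right panel) that was called higher (red, to the right) or lower (blue, to the left) in mutant against wild-type fins, with the number of tested members in brackets and dashed lines at the shares of all tested genes, 19.6% and 17.0%. Interferon-stimulated and antigen presentation genes reached 78.3% and 81.2% higher, and collagen maturation and collagen genes 58.3% and 52.9% lower.

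Within the Il-6 family and its Jak-Stat genes, 12 of 29 tested members rose and 5 fell, with a median log2 fold change of 0.14. The negative regulators of the pathway were among the highest rises. socs1b had 151, 142 and 121 normalized counts in mutants, against 48, 28 and 22 in wild types (log2 fold change 2.11 ± 0.28 SE, adjusted p = 0.00163), and its paralog socs1a had 350, 272 and 305, against 137, 125 and 122 (1.26 ± 0.12, adjusted p = 0.000532). The related gene socs3a also rose, with 1194, 957 and 1114 in mutants and 756, 655 and 789 in wild types (0.57 ± 0.11, adjusted p = 0.00677). Its paralog socs3b, which the paper describes as a direct target of Stat3, moved the other way. It had 303, 532 and 425 in mutants and 549, 633 and 648 in wild types (-0.57 ± 0.19, adjusted p = 0.0452). That call was lost after quantile normalization, with an adjusted p of 0.055 in limma. It was also lost without mutant replicates 1 and 3 and wild-type replicates 1, 2 and 3, with an adjusted p of 0.0678, 0.0828, 0.0703, 0.12 and 0.124.

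The receptors of the family split too. il6r, the receptor of interleukin-6, had 277, 391 and 256 normalized counts in mutants, against 82, 105 and 74 in wild types (log2 fold change 1.80 ± 0.19 SE, adjusted p = 0.000795). The shared receptor il6st had 664, 604 and 640 in mutants and 1009, 1132 and 1134 in wild types (-0.78 ± 0.08, adjusted p = 0.000782). The genotypes did not overlap for either receptor, which the rule for naming required of il6r but not of il6st. crlf1b, which encodes a soluble cytokine receptor-like factor, had 27, 45 and 35 in mutants, against 57, 83 and 77 in wild types (-1.01 ± 0.25, adjusted p = 0.0176), and its adjusted p in limma was 0.0674 and 0.0605 without wild-type replicates 2 and 3. The lower count of the family was 3 without mutant replicate 3 and without wild-type replicates 2 and 3. The ligands of the mutated receptor did not pass the test: il11a had 55, 186 and 107 in mutants and 82, 155 and 159 in wild types (-0.29 ± 0.43), and il11b had 42, 46 and 32 in mutants and 35, 46 and 62 in wild types (-0.23 ± 0.27). stat3 itself ranged from 473 to 611 in mutants and from 492 to 554 in wild types (0.00 ± 0.11, adjusted p = 0.982).

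Matrix genes fell together in mutant stumps. Of 34 collagen genes 18 fell and 4 rose (median log2 fold change -0.34), and of the 36 genes that hydroxylate, fold, trim and crosslink collagen 21 fell and 4 rose (median -0.46). The KEGG term ECM-receptor interaction had 32 of 63 genes lower and 6 higher, 50.8% lower, and its median was -0.42. These counts stayed at 13 or more for collagens, 17 or more for collagen maturation and 23 or more for the KEGG term with any library left out, while the higher count for collagen maturation was 2 without mutant replicates 1 and 3 and wild-type replicates 1 and 3. The mean over the collagen list did not share the sign of its median, with log2 deviations of -0.03, 0.02 and 0.05 in mutants, against -0.01, 0.08 and -0.11 in wild types.

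Collagens of bone and cartilage were among the largest of these falls. col10a1b, a type X collagen made by bone-forming cells of the fin, had 250, 358 and 265 normalized counts in mutants, against 805, 962 and 833 in wild types (log2 fold change -1.59 ± 0.14 SE, adjusted p = 0.000447). col11a1b had 402, 484 and 511 in mutants and 1129, 1501 and 1110 in wild types (-1.41 ± 0.14, adjusted p = 0.000604). The prolyl 4-hydroxylase subunits, needed to stabilise the collagen triple helix, fell as a pair. p4ha1b had 44, 63 and 53 in mutants, against 139, 161 and 144 in wild types (-1.47 ± 0.17). p4ha1a had 114, 111 and 146, against 256, 285 and 320 (-1.21 ± 0.14).

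Some matrix genes went the other way. col15a1b, a basement membrane-associated collagen, had 141, 153 and 112 normalized counts in mutants and 45, 27 and 45 in wild types (log2 fold change 1.79 ± 0.24 SE, adjusted p = 0.0017). pcolceb, an enhancer of procollagen C-proteinase, had 601, 575 and 541 in mutants, against 197, 167 and 142 in wild types (1.77 ± 0.13, adjusted p = 0.000232). Its paralog pcolcea had 327, 314 and 227, against 108, 159 and 116 (1.18 ± 0.19). Among ECM ligands, thbs3a, a thrombospondin of skeletal tissue, had 355, 362 and 379 in mutants and 1227, 1105 and 1070 in wild types (-1.63 ± 0.08, adjusted p = 0.000102). In contrast, vwf, the clotting factor made by endothelium, had 81, 82 and 101 in mutants and 24, 18 and 24 in wild types (1.96 ± 0.22). lama1, a laminin chain, was spread widely among mutants, at 261, 107 and 58, against 317, 405 and 608 in wild types (-1.85 ± 0.49, adjusted p = 0.0209), and its adjusted p in limma was 0.059 and 0.0706 without wild-type replicates 2 and 3.

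Cell-matrix adhesion moved less evenly. Of 54 integrin and focal adhesion genes 18 fell and 9 rose, and the KEGG term Focal adhesion had 51 of 195 genes lower and 25 higher. The integrin list had 11 and 8 genes lower without wild-type replicates 1 and 2, and 5, 5, 5 and 3 higher without mutant replicate 2 and wild-type replicates 1, 2 and 3. Focal adhesion had 33 lower without wild-type replicate 2 and 15 higher without wild-type replicate 3. itga3b, an integrin of epidermal basement membranes, had 55, 114 and 100 normalized counts in mutants, against 227, 246 and 241 in wild types (log2 fold change -1.46 ± 0.25 SE, adjusted p = 0.00406). The focal adhesion kinase gene ptk2aa had 116, 104 and 144 in mutants and 267, 367 and 331 in wild types (-1.40 ± 0.16), and the integrin beta subunit itgb1a had 215, 414 and 377, against 498, 691 and 695 (-0.94 ± 0.25). The adjusted p of itgb1a in limma was 0.0715 and 0.0673 without wild-type replicates 2 and 3.

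Hemidesmosomes anchor the epidermis to the basement membrane below it. Of 32 hemidesmosome and basement membrane genes 8 fell and 3 rose (median log2 fold change -0.34), and the share of lower genes was 25.0%, beside 17.0% of all genes tested. col7a1, the anchoring fibril collagen, had 1131, 1308 and 1275 normalized counts in mutants, against 2616, 2544 and 2477 in wild types (-1.04 ± 0.09 SE, adjusted p = 0.000344). Of the genes averaging 1600 or more, 3.92% differed by over 2-fold. The heparan sulfate proteoglycan hspg2, perlecan, had 145, 149 and 198 in mutants and 381, 476 and 385 in wild types (-1.34 ± 0.15), and frem2b of the Fraser complex had 344, 560 and 458, against 827, 841 and 847 (-0.91 ± 0.16). The laminin chain lamc3 rose, with 292, 279 and 287 in mutants and 126, 181 and 150 in wild types (0.92 ± 0.14).

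Among matrix proteases and their inhibitors only the lower share exceeded the background. Of 46 genes 15 fell (32.6%, beside 17.0% of all tested genes) and 8 rose (17.4%, beside 19.6%). The inhibitor timp4.3 had 203, 119 and 129 normalized counts in mutants, against 18, 12 and 17 in wild types (log2 fold change 3.16 ± 0.27 SE, adjusted p = 0.00038). The epidermal protease mmp28 had 159, 132 and 144 in mutants and 41, 49 and 54 in wild types (1.58 ± 0.17). The collagenase mmp13b had 20, 68 and 49 in mutants, against 172, 183 and 216 in wild types (-2.19 ± 0.39, adjusted p = 0.00481), and the sheddase adam17b had 20, 17 and 23, against 57, 136 and 87 (-2.09 ± 0.33). The count of lower genes was 8 without wild-type replicate 3 and 9 without wild-type replicate 2.

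Genes of bone-forming cells were more often lower than higher in mutants. Of 22 osteoblast and bone matrix genes 10 fell and 1 rose, 45.5% lower, with a median log2 fold change of -0.37. entpd5a, an ectoenzyme required for mineralization in zebrafish, had 15, 21 and 31 normalized counts in mutants, against 142, 205 and 153 in wild types (-2.88 ± 0.28 SE, adjusted p = 0.000557). sp7 (osterix), the transcription factor of committed osteoblasts, had 50, 81 and 79 in mutants and 153, 205 and 150 in wild types (-1.28 ± 0.22), and runx2b, an earlier osteoblast factor, had 38, 31 and 51, against 52, 112 and 89 (-1.02 ± 0.32, adjusted p = 0.0371). The call of runx2b was lost without mutant replicates 1 and 2 and wild-type replicates 2 and 3, with an adjusted p in limma of 0.0739, 0.0899, 0.124 and 0.107. The phosphatase gene alpl was the exception and rose, with 452, 343 and 303 in mutants and 164, 165 and 140 in wild types (1.21 ± 0.16). The count of 10 fell to 5 without mutant replicate 1, to 6 without mutant replicate 3 or wild-type replicate 2, to 4 without wild-type replicate 3 and to 6 at a minimum mean of 50. bglap (osteocalcin), a marker of mature osteoblasts, was under the minimum of 10 and was not tested. The paper reports that markers of mature cells, osteoblasts among them, stayed elevated in mutant fins after amputation.

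Genes of the blastema and of the wound epidermis were counted in separate lists. In the blastema list 9 of 26 genes fell and 3 rose, and among signals and transcription factors of the wound epidermis 6 of 20 fell and 2 rose. The blastemal matrix gene tnc, tenascin C, had 920, 1405 and 1329 normalized counts in mutants, against 3043, 2826 and 2734 in wild types (log2 fold change -1.26 ± 0.16 SE, adjusted p = 0.00129). The versican genes, whose proteoglycans fill young matrix, both fell. vcana had 126, 180 and 138 in mutants and 441, 405 and 433 in wild types (-1.54 ± 0.14, adjusted p = 0.00044). vcanb had 340, 348 and 564, against 931, 1063 and 725 (-1.14 ± 0.21). The ligand fgf3 had 22, 45 and 40 in mutants, against 83, 88 and 78 in wild types (-1.26 ± 0.28). In the epidermal list, the ligand bmp4 fell, with 56, 71 and 64 in mutants against 101, 135 and 122 in wild types (-0.89 ± 0.17). The receptor igf1ra also fell, with 44, 46 and 53 against 109, 140 and 89 (-1.20 ± 0.20). The transcription factor sp8a rose, with 870, 769 and 805 in mutants and 398, 460 and 530 in wild types (0.82 ± 0.11). The lower count of wound epidermis genes was 3 without mutant replicate 3 or wild-type replicate 3, where 13.0% and 10.7% of all tested genes were lower. It was thus close to the background without mutant replicate 3. Without mutant replicate 1 it was 4, where 13.8% of all tested genes were lower. The higher count of blastema genes was 1 without mutant replicates 1 and 3 and wild-type replicates 1 and 3.

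**Figure D3:**
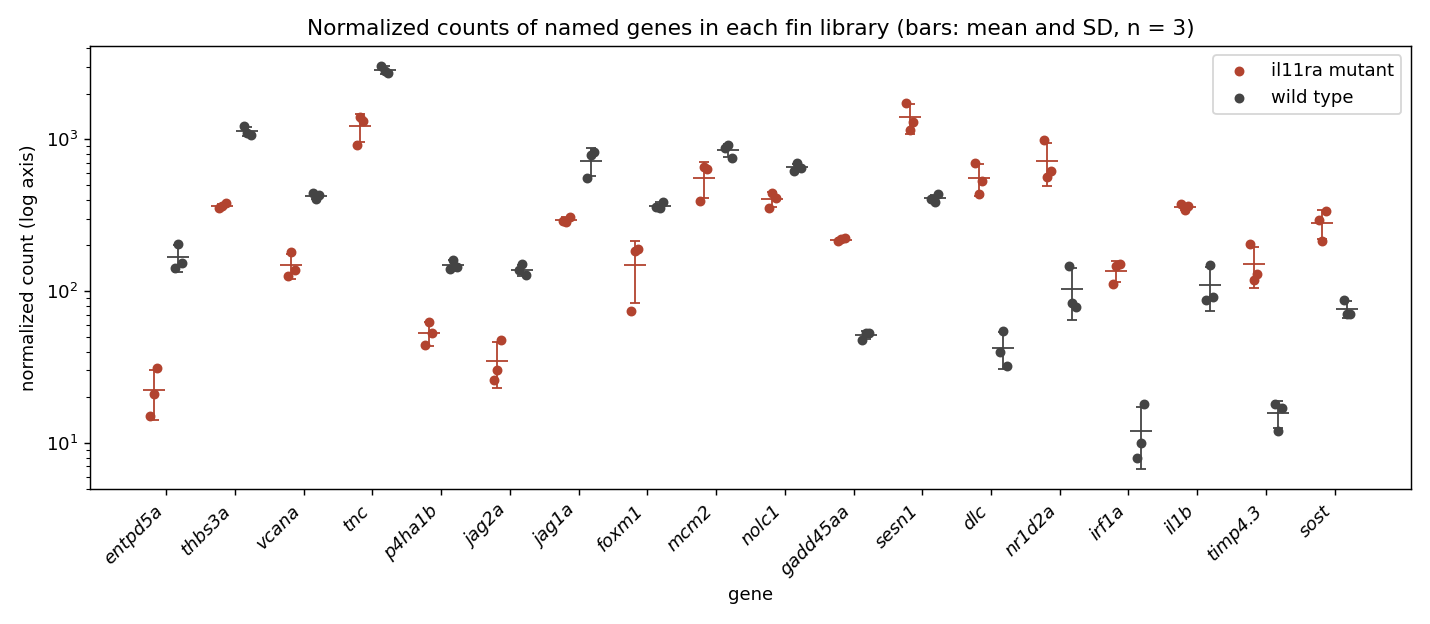
Normalized counts (log axis) of 18 named genes are plotted for each il11ra mutant fin (red, left of each gene) and each wild-type fin (grey, right), with the mean and SD of the 3 fins. In all 18 genes the 3 mutant fins lay on 1 side of the 3 wild-type fins, as the rule for naming list members required. Examples are entpd5a, with 15 to 31 in mutants and 142 to 205 in wild types, and foxm1, with mutant replicate 1 lowest at 74.

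Among signaling pathways, the Wnt list and the Notch and Hedgehog list held more lower than higher genes. Of 69 Wnt pathway genes 19 fell and 8 rose. Without wild-type replicate 2, however, 7 were lower and 7 higher. In that fit 9.93% of all tested genes were lower and 14.9% higher. The lower count was 10 and 12 without wild-type replicate 3 and mutant replicate 3. The receptor fzd3b had 20, 31 and 26 normalized counts in mutants, against 58, 99 and 66 in wild types (log2 fold change -1.48 ± 0.28 SE). The co-receptor ptk7a had 277, 401 and 349, against 591, 784 and 641 (-0.98 ± 0.16). The secreted Wnt modulator sfrp2 had 75, 215 and 156 in mutants and 338, 391 and 314 in wild types (-1.34 ± 0.33), with an adjusted p in limma of 0.0507 and 0.061 without wild-type replicates 1 and 2. Against these, wnt5a, a noncanonical ligand, had 408, 314 and 396 in mutants and 130, 193 and 225 in wild types (1.05 ± 0.20). Likewise sost, the Wnt antagonist sclerostin, had 293, 214 and 337, against 88, 71 and 71 (1.84 ± 0.18, adjusted p = 0.000606).

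Notch and Hedgehog genes fell in 11 of 40 and rose in 5. The ligand jag2a had 26, 30 and 48 normalized counts in mutants, against 137, 150 and 127 in wild types (log2 fold change -2.01 ± 0.24 SE). Its relative jag1a had 291, 285 and 308, against 556, 792 and 830 (-1.28 ± 0.15). lfng, the sugar transferase that tunes Notch, had 230, 254 and 221, against 478, 448 and 489 (adjusted p = 0.000447). The Delta ligand dlc had 702, 438 and 532 in mutants and 40, 55 and 32 in wild types (3.69 ± 0.23, adjusted p = 0.000147), opposite to both Jagged genes. The Hedgehog target gli1 had 79, 159 and 123 in mutants, against 174, 252 and 232 in wild types (-0.90 ± 0.25, adjusted p = 0.0272), and its adjusted p in limma was 0.0537, 0.0933 and 0.081 without mutant replicate 3 and wild-type replicates 2 and 3. The higher count of this list was 3 without mutant replicates 2 and 3 and wild-type replicates 2 and 3, and the lower count was 7 without mutant replicate 1, 6 without mutant replicate 3, and 5 and 6 without wild-type replicates 2 and 3.

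The higher shares of the Fgf, Tgf-beta with Bmp and retinoic acid lists sat nearer the background of 19.6%. Fgf genes rose in 8 of 33 (24.2%) and fell in 2 (6.06%, under the 17.0% of all tested genes). The rises included fgfbp2a, an Fgf-binding protein, with 1028, 648 and 769 normalized counts in mutants and 221, 307 and 272 in wild types (log2 fold change 1.59 ± 0.18 SE). The feedback inhibitor spry4 had 463, 440 and 492, against 125, 183 and 248 (1.38 ± 0.22). The lower count of Fgf genes was 4 without mutant replicate 2 or wild-type replicate 1. Tgf-beta and Bmp genes rose in 13 of 72 and fell in 9 (18.1% and 12.5%, median 0.12). Their mean log2 deviation was -0.16, 0.07 and 0.02 in mutants, against -0.17, 0.18 and 0.06 in wild types. The ligand tgfb2 fell, with 15, 17 and 36 in mutants and 65, 102 and 111 in wild types (-2.05 ± 0.36, adjusted p = 0.00477). The receptor tgfbr2b rose, with 757, 533 and 618 in mutants and 245, 306 and 281 in wild types (1.19 ± 0.14). Retinoic acid genes rose in 7 of 34 (20.6%) and fell in 5 (14.7%). The receptor raraa had 116, 120 and 76 in mutants, against 44, 34 and 26 in wild types (1.56 ± 0.26). The retinal-producing enzyme rdh10a had 54, 39 and 36, against 167, 102 and 183 (-1.76 ± 0.26). The higher count of retinoic acid genes was 4 without wild-type replicate 2. Of 31 Hox genes, which set position along the body and the fin, 3 rose and 1 fell (9.68% and 3.23%, both under the background). The log2 fold changes of these called genes ran from -0.45 to 0.79.

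Cell cycle genes were lower in mutants, most of all in 1 fin. No gene of the 71 DNA replication genes or the 80 G2 and M phase genes rose in the limma fit, and 0 were higher at an unadjusted p under 0.05, while 27 and 32 fell, with median log2 fold changes of -0.58 and -0.96. Mutant replicate 1 was the lowest fin: the mean log2 deviation of the G2 and M list from the 6-library mean was -1.36, -0.09 and 0.05 in mutants, against 0.46, 0.42 and 0.52 in wild types. That of the replication list was -0.78, -0.05 and -0.06, against 0.33, 0.32 and 0.22. Without that fin the medians were -0.32 for replication and -0.51 for G2 and M, and 26 of 71 and 53 of 80 genes fell, against 16.2% of all tested genes higher and 13.8% lower in the same fit.

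Without wild-type replicates 1, 2 and 3 the limma fit gave 6, 6 and 9 replication genes and 5, 4 and 3 G2 and M genes lower. In the same 3 fits 11.9%, 9.93% and 10.7% of all tested genes were lower. The share of the G2 and M list was under this background in each fit. That of the replication list was above it only without wild-type replicate 3. The G2 and M count also moved to 41 and 53 without mutant replicates 2 and 3 and to 15 with robust empirical Bayes, and the replication count to 42 without mutant replicate 2. foxm1, the transcription factor of the mitotic program, had 74, 184 and 191 normalized counts in mutants and 361, 352 and 387 in wild types (log2 fold change -1.41 ± 0.33 SE, adjusted p = 0.0129). The mitotic genes ect2, prc1b and melk had the same shape, for example 42, 128 and 155 for prc1b in mutants, against 272, 227 and 281 in wild types (-1.45 ± 0.43, adjusted p = 0.0312). Among replication genes, the origin recognition subunit orc3 had 117, 188 and 214 in mutants and 357, 334 and 310 in wild types (-0.99 ± 0.21). The helicase subunit mcm2 had 391, 657 and 634, against 873, 924 and 757 (-0.63 ± 0.19, adjusted p = 0.0346). With 1 wild type left out, the calls of ect2, prc1b, melk and mcm2 were lost, with an adjusted p in limma between 0.0511 and 0.108. All 3 mutants were below all 3 wild types in each of these genes, as the rule for naming list members required.

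The KEGG terms of DNA metabolism gave the same direction. Cell cycle had 37 of 126 genes lower and 10 higher, DNA replication 11 of 35 lower and 0 higher, Base excision repair 15 of 35 lower and 1 higher, Mismatch repair 11 of 22 lower and Homologous recombination 11 of 26 lower, the last 2 with 0 higher. In these 3 terms without a rise 0 genes were higher at an unadjusted p under 0.05 in limma. The 3 repair terms were picked for description after their counts were seen. Among the base excision repair genes, the thymine glycosylase tdg.1 had 186, 247 and 266 normalized counts in mutants, against 459, 383 and 456 in wild types (log2 fold change -0.90 ± 0.15 SE, adjusted p = 0.00349). Its paralog tdg.2 had 55, 84 and 68, against 142, 128 and 173 (-1.10 ± 0.20, adjusted p = 0.00482). These neighbours on chromosome 25 overlap, so that their reads may not be separable. Without wild-type replicates 1, 2 and 3 the counts of lower genes were 16, 13 and 14 for Cell cycle and 2, 2 and 3 for DNA replication. In the same 3 fits they were 6, 5 and 5 for Base excision repair, 3, 4 and 5 for Mismatch repair and 6, 5 and 6 for Homologous recombination. Of all tested genes 11.9%, 9.93% and 10.7% were lower in these fits. Cell cycle was then close to this background, DNA replication under it and the 3 repair terms above it. DNA replication had 19 without mutant replicate 2.

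**Figure D4:**
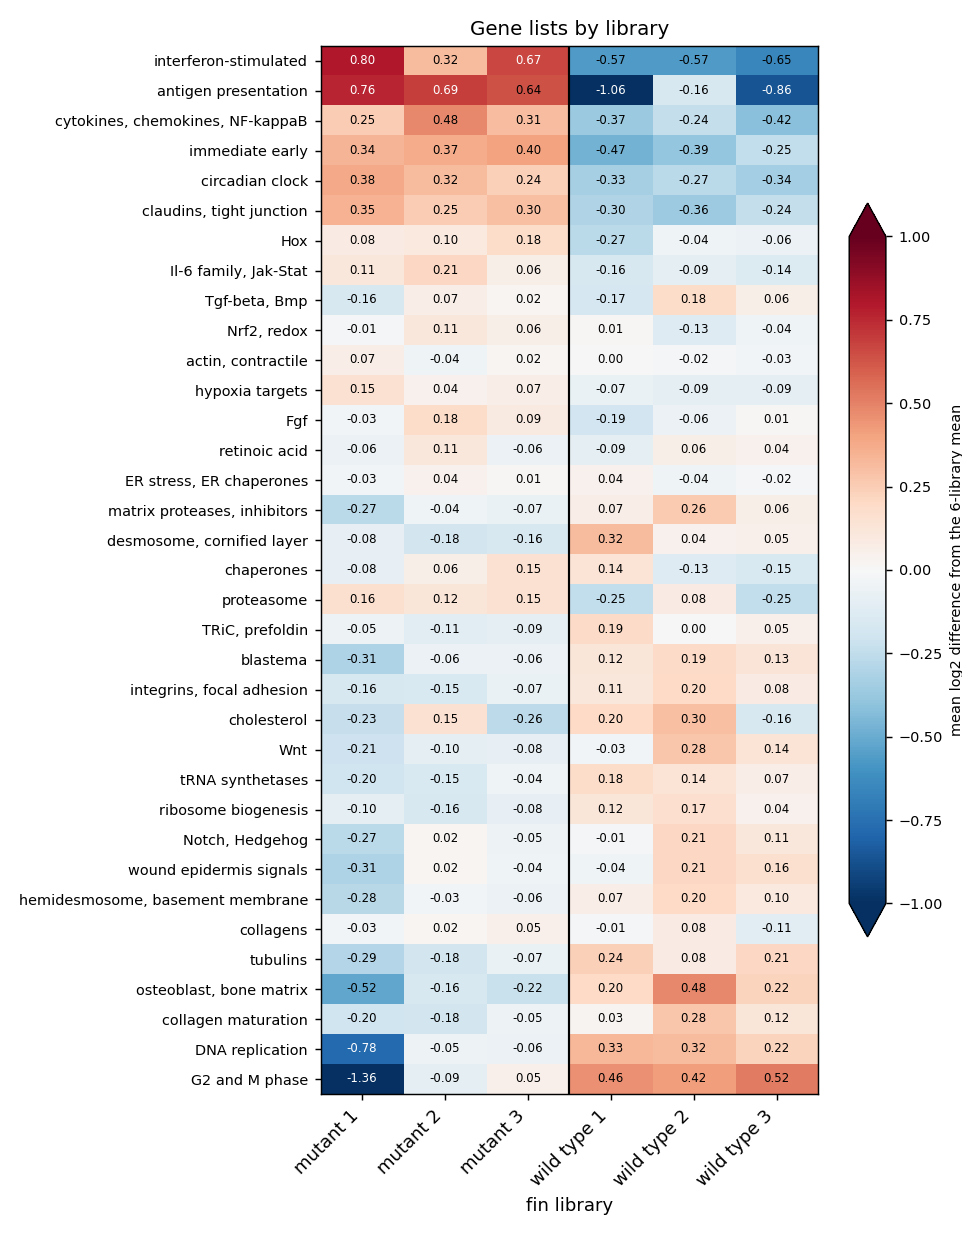
Each cell gives the mean, over the tested genes of a list, of the log2 difference of a fin from the mean of the 6 fins, with mutant fins left of the line, wild-type fins right of it, and lists ordered by their median fold change from highest at the top. G2 and M phase and DNA replication are lowest in mutant replicate 1, at -1.36 and -0.78, and antigen presentation is nearer 0 in wild-type replicate 2, at -0.16, than in wild-type replicates 1 and 3, at -1.06 and -0.86.

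Genes that build the translation machinery fell by small amounts in all mutants. Of 97 nucleolar and ribosome biogenesis genes 38 fell and 1 rose (median log2 fold change -0.25), and of 38 aminoacyl-tRNA synthetase genes 14 fell and 1 rose (median -0.25). The list means of the 3 mutants, -0.10, -0.16 and -0.08 for ribosome biogenesis, all lay below those of the 3 wild types, at 0.12, 0.17 and 0.04. nolc1, a nucleolar scaffold, had 355, 443 and 411 normalized counts in mutants and 623, 698 and 644 in wild types (-0.70 ± 0.10 SE, adjusted p = 0.00226). utp20, of the small subunit processome, had 284, 286 and 313 in mutants, against 443, 545 and 421 in wild types (-0.66 ± 0.11), and the leucyl-tRNA synthetase lars1b had 416, 491 and 474, against 768, 713 and 635 (-0.61 ± 0.10). The lower count for ribosome biogenesis was 24, 21 and 23 without mutant replicates 1, 2 and 3 and 18, 15 and 28 without wild-type replicates 1, 2 and 3. That for synthetases was 7 without wild-type replicate 3, 8 without wild-type replicate 1 and 9 without mutant replicate 1 or wild-type replicate 2.

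RNA transport followed with 37 of 143 genes lower and 6 higher, and 23, 21 and 23 lower without wild-type replicates 1, 2 and 3. Its largest changes were rises of repressors of translation. eif4ebp3, an inhibitor of cap-dependent initiation, had 339, 170 and 190 normalized counts in mutants and 27, 41 and 39 in wild types (log2 fold change 2.63 ± 0.28 SE, adjusted p = 0.000797). Its paralog eif4ebp3l had 682, 228 and 358, against 105, 99 and 97 (1.92 ± 0.34). Ribosomal proteins themselves barely passed the test. Of 82 cytosolic ones in the KEGG term Ribosome 1 rose and 0 fell in the limma fit, with log2 fold changes between -0.12 and 0.36, and of 40 mitochondrial ones 8 fell and 0 rose, with a median of -0.21. At an unadjusted p under 0.05 in limma 0 cytosolic genes were lower and 1 mitochondrial gene was higher. The Ribosome term had 4, 3 and 3 genes lower without mutant replicates 1, 2 and 3 and 1, 3 and 3 without wild-type replicates 1, 2 and 3. Spliceosome genes, 16 of 130 lower and 3 higher, were under the background as reported, but quantile normalization gave 30 lower and upper-quartile factors 32, and 9, 8 and 9 were lower without mutant replicate 1 and wild-type replicates 1 and 3. Its higher count was 1 without mutant replicate 3 or wild-type replicate 2.

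Immune genes formed a large block on the higher side. Of 46 interferon-stimulated genes 36 rose and 1 fell (78.3% higher, median log2 fold change 0.94), and of 76 cytokine, chemokine and NF-kappaB genes 39 rose and 3 fell (51.3% higher, median 0.64). With any library left out, 28 to 37 interferon genes and 34 to 36 inflammation genes were higher. The KEGG term Cytokine-cytokine receptor interaction had 47 of 120 genes higher and 18 lower, Toll-like receptor signaling 28 of 82 higher and 9 lower, and Lysosome 44 of 120 higher and 10 lower, where 29 were higher without wild-type replicate 2. Without wild-type replicates 1 and 2 the Toll-like receptor term had 4 and 2 lower, and Lysosome had 6 lower without wild-type replicate 1. Not all such terms rose. Phagosome had 24 of 123 genes higher (19.5%) and 22 lower, and 14 lower without wild-type replicate 2. NOD-like receptor signaling had 10 of 45 higher (22.2%) and 3 lower, so that both higher shares were close to the background.

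irf1a, an interferon-responsive transcription factor, had 112, 146 and 152 normalized counts in mutants, against 8, 10 and 18 in wild types (log2 fold change 3.47 ± 0.31 SE, adjusted p = 0.00044). The antiviral genes ifit10 and cmpk2 were also far apart. ifit10 had 424, 164 and 299 in mutants against 31, 28 and 23 in wild types (3.29 ± 0.32). cmpk2 had 276, 150 and 263 against 24, 43 and 31 (2.76 ± 0.29). The cytokine il1b had 374, 341 and 364 in mutants and 87, 149 and 91 in wild types (1.76 ± 0.20, adjusted p = 0.000931). Chemokine genes of lymphocyte traffic rose too, with 71, 144 and 95 for the ligand ccl19a.1 in mutants, against 11, 22 and 16 in wild types (2.58 ± 0.34). The receptor cxcr3.1 had 100, 156 and 115, against 31, 30 and 26 (2.03 ± 0.21). Of lysosomal genes, the lipid transporter abca2 had 422, 296 and 307 in mutants and 142, 104 and 111 in wild types (1.51 ± 0.17).

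Markers of immune cells moved with these lists. Of the tested markers 14 of 19 for macrophages, 7 of 12 for neutrophils, 9 of 13 for T and NK cells and 3 of 5 for B cells rose. The B cell count was 1 without mutant replicate 2 or any of the wild types. Summed over all their markers, macrophages had 7347 to 8205 normalized counts in mutants, against 4374 to 5273 in wild types, neutrophils 5960 to 6677, against 3720 to 4345, and T and NK cells 1922 to 2679, against 1169 to 1334. B cell markers summed to 319 to 744 in mutants and 219 to 260 in wild types, with cd79a, cd79b and pax5 under the minimum of 10. The marker with the highest mean was called for T and NK cells (runx3, 675, 812 and 638 in mutants, against 369, 540 and 463) and B cells (btk, 153, 227 and 175, against 120, 125 and 119), but not for macrophages (apoeb, 1568, 1043 and 1158, against 1113, 778 and 926) or neutrophils (mmp9, 1587, 1107 and 1271, against 1031, 1051 and 939). The call of btk was lost without mutant replicate 2 and wild-type replicates 1, 2 and 3, with an adjusted p in limma of 0.0504, 0.0582, 0.0538 and 0.0622. Of the 3 tested mast cell and eosinophil markers 2 rose, and the protease gene cpa5, the most abundant, had 172, 336 and 158 in mutants, against 42, 10 and 26 in wild types (log2 fold change 3.17 ± 0.50 SE, adjusted p = 0.00296). The neutrophil list also holds cpa5, so that its rise counts in both lists. Among the 14 tested erythrocyte markers 1 rose and 2 fell, with a median log2 fold change of 0.37. The most abundant, the heme enzyme gene urod, had 87, 144 and 130 in mutants, against 187, 216 and 192 in wild types (-0.75 ± 0.19, adjusted p = 0.0187, and 0.067 in limma without wild-type replicate 2). The part of these cells in the immune lists was not tested.

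Antigen presentation genes rose in 26 of 32 and fell in 2, with a median log2 fold change of 0.80, and 18 to 23 were higher with a library left out. In 6 of the 26 and 1 of the 2, a library under 10 normalized counts stood against another of 100 or more. On chromosome 8, mhc2b, an MHC class II gene, had 0, 0 and 1 normalized counts in mutants and 347, 272 and 357 in wild types, whereas mhc2dab, another class II gene, had 561, 618 and 437 in mutants and 6, 2 and 5 in wild types. On chromosome 19, between 7105838 and 7144585, the immunoproteasome subunits psmb8a, psmb9a, psmb12 and psmb13a and the peptide transporter tap2a were high in all mutants, near 0 in wild-type replicates 1 and 3, and intermediate in wild-type replicate 2. The annotated spans of psmb8a and psmb13a overlap, so that their reads may not be separable. psmb8a, for example, had 448, 407 and 412 in mutants and 0, 196 and 3 in wild types, and tap2a 636, 725 and 567, against 5, 196 and 7. The calls of psmb8a, psmb9a, psmb12 and psmb13a were lost with any library but wild-type replicate 2 left out, with an adjusted p in limma between 0.0518 and 0.101. Only 3 other genes of the table had 50 or more in every mutant, 20 or more in wild-type replicate 2 and under 10 in the other wild types. MHC genes have near-identical copies and differ between haplotypes, so that a missing gene and an unexpressed one cannot be told apart in these values. The other 20 rising genes of the list did not have this pattern, and mhc2a, an alpha chain, had 786, 803 and 630 in mutants, against 217, 142 and 190 in wild types (2.02 ± 0.17 SE, adjusted p = 0.000353). However, mhc2a starts at 36472444 on chromosome 8, close to mhc2dab, which ends at 36469117. Likewise tapbp.1, mhc1uka and tapbp.2, also among the 20, lie near the chromosome 19 block, between 7038694 and 7070691. Whether haplotypes differ at these 20 genes was not tested.

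Immediate early and circadian clock genes rose in large shares. Of 51 AP-1, Egr and related early genes 35 rose and 2 fell (68.6% higher, median log2 fold change 0.62), and of 42 clock genes 23 rose and 1 fell (54.8% higher, median 0.47), with 24 to 32 and 20 to 21 higher when a library was left out. gadd45aa, a stress gene that restrains the cell cycle, was uniform within genotypes, at 214, 219 and 223 normalized counts in mutants and 48, 53 and 53 in wild types (2.07 ± 0.12 SE, adjusted p = 0.000128). klf9, a hormone-responsive transcription factor, had 463, 183 and 268 in mutants, against 43, 20 and 9 in wild types (3.76 ± 0.53), and the orphan receptor nr4a2b had 135, 115 and 116, against 16, 32 and 35 (2.17 ± 0.30). Among clock genes, nr1d2a, the repressor Rev-erb beta, had 986, 567 and 621 in mutants, against 147, 83 and 79 in wild types (2.82 ± 0.28, adjusted p = 0.000571). nfil3-6, another clock repressor, had 628, 332 and 446, against 88, 120 and 119 (2.06 ± 0.23). The time of day at collection was not given in the sources used here.

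FoxO and apoptosis genes leaned the same way. The KEGG term FoxO signaling had 44 of 145 genes higher and 16 lower, and Apoptosis, picked after its count was seen, 51 of 149 higher and 19 lower. In contrast, p53 signaling was close to the background, with 15 of 69 higher and 12 lower (21.7% and 17.4%). Without wild-type replicates 1, 2 and 3 the lower counts were 11, 8 and 10 for FoxO, 8, 5 and 11 for Apoptosis and 5, 5 and 4 for p53 signaling. Apoptosis had 12 lower without mutant replicate 1. The muscle-wasting ubiquitin ligase fbxo32 had 241, 119 and 105 normalized counts in mutants and 18, 20 and 67 in wild types (log2 fold change 2.28 ± 0.51 SE, adjusted p = 0.0118). The mitophagy receptor bnip3 had 105, 100 and 81, against 17, 19 and 27 (2.15 ± 0.24). Of p53 targets, pmaip1 (Noxa), which promotes apoptosis, had 424, 466 and 395 in mutants, against 137, 119 and 160 in wild types (1.63 ± 0.13, adjusted p = 0.000318). sesn1, a sestrin that restrains mTORC1, had 1742, 1146 and 1300 in mutants and 404, 388 and 434 in wild types (1.75 ± 0.15, adjusted p = 0.000365). Of the genes averaging 800 to 1600, 2.41% differed by over 2-fold. The mTOR term held 28 of 161 genes higher and 30 lower, close to the background, with 16 higher without wild-type replicate 3 and 17, 12 and 17 lower without mutant replicate 2 and wild-type replicates 2 and 3. Its rises included the mTORC1 inhibitor ddit4, with 464, 144 and 329 in mutants and 59, 46 and 50 in wild types (2.42 ± 0.38). The autophagy kinase ulk2 had 1320, 512 and 666, against 177, 200 and 155 (2.11 ± 0.31). In klf9, nr1d2a, ddit4, ulk2 and eif4ebp3l mutant replicate 1 was the highest fin. The co-chaperone fkbp5, a target of the glucocorticoid receptor, was also highest there and spread in wild types, at 1747, 843 and 1024 in mutants, against 701, 116 and 124 in wild types (2.40 ± 0.64, adjusted p = 0.0218). The adjusted p of fkbp5 in limma was 0.0589, 0.0772 and 0.0723 without mutant replicate 1 and wild-type replicates 2 and 3.

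Junction genes of epithelia changed in both directions. Claudins and other tight junction proteins rose in 19 of 34 and fell in 3 (55.9% higher, median log2 fold change 0.44), and 14 to 20 were higher with a library left out. The broader KEGG term Tight junction did not share this rise, with 24 of 116 genes higher and 16 lower (20.7% and 13.8%, median 0.05). Its counts were 19 to 28 higher and 7 to 14 lower with a library left out. cldnc was near 0 in wild types, at 2, 0 and 1 normalized counts, and had 328, 166 and 153 in mutants. The occludin gene oclnb had 791, 648 and 675 in mutants, against 347, 307 and 360 in wild types (1.06 ± 0.11 SE, adjusted p = 0.000606), and cgnb, a cingulin, had 356, 299 and 360, against 123, 159 and 149 (1.23 ± 0.13). Desmosome and cornified layer genes went the other way, 6 of 21 lower and 1 higher. The desmoplakin gene dspa had 2195, 1982 and 2101 in mutants, against 3987, 3281 and 3190 in wild types (-0.73 ± 0.11). pkp1a, a plakophilin, had 42, 69 and 40, against 130, 139 and 138 (-1.46 ± 0.22). The transglutaminase tgm5l had 73, 166 and 97, against 788, 415 and 354 (-2.20 ± 0.36).

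Markers of skin were high in both genotypes. Superficial keratinocyte markers summed to 10079 to 12298 normalized counts in mutants and 8920 to 13040 in wild types, and 2 of 15 rose and 1 fell. Basal keratinocyte markers summed to 11434 to 12875, against 11871 to 14668, with 0 of 12 higher in limma (1 at an unadjusted p under 0.05) and 1 lower. Their most abundant markers, krt5 with 2704, 2057 and 2124 in mutants and 2508, 1768 and 2007 in wild types and col17a1b with 2696, 2293 and 2564 and 3199, 2380 and 2657, did not pass the test. Of the 14 heart muscle markers 2 reached the minimum, and the list summed to 26 to 40 in mutants and 76 to 173 in wild types. The most abundant of them, the troponin gene tnnt2a, had 0, 6 and 5 in mutants, against 61, 74 and 57 in wild types (log2 fold change -4.22 ± 0.71 SE, adjusted p = 0.00382). Of 5 tested skeletal muscle markers 2 rose and 0 fell in the limma fit (also 0 at an unadjusted p under 0.05), with a median of 0.70. Among these the troponin gene tnnt3b had 32, 24 and 31 in mutants, against 36, 38 and 61 in wild types (-0.59 ± 0.28), which did not pass the test.

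Secretory, transporting and connective cell types differed in their markers. Mucous cell markers fell in 3 of 4 tested, and the mucin muc5.2 had 204, 209 and 300 normalized counts in mutants, against 1159, 1127 and 907 in wild types (log2 fold change -2.17 ± 0.16 SE, adjusted p = 0.000252). Ionocyte markers rose in 5 of 10 and fell in 0 in the limma fit (also 0 at an unadjusted p under 0.05), summing to 1278 to 1726 in mutants and 972 to 1168 in wild types, although the most abundant, the proton pump subunit atp6v1aa, had 631, 682 and 637 in mutants and 719, 622 and 633 in wild types. Only 3 ionocyte markers were higher without mutant replicate 1, mutant replicate 3 or wild-type replicate 3. Fibroblast markers of the fin fell in 6 of 12 and rose in 2, summing to 14034 to 15152 in mutants and 18867 to 22032 in wild types, much of it fibronectin: fn1b had 4245, 3136 and 3671 in mutants, against 6719, 5353 and 5524 in wild types (-0.67 ± 0.14, adjusted p = 0.00837). As the highest gene of every library, fn1b is given the same value in all fins by quantile normalization, which therefore gives no check of it. Osteoblast markers summed to 1603 to 1892 in mutants and 1855 to 2154 in wild types, and col10a1a, the most abundant, had 866, 483 and 632 in mutants and 706, 773 and 680 in wild types, which did not pass the test. Of these 10 markers 5 fell and 1 rose, with 2 lower without mutant replicate 1, wild-type replicate 2 or wild-type replicate 3, and 3 without mutant replicate 3. The part of these cell types in the matrix and bone lists was not tested.

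**Figure D5:**
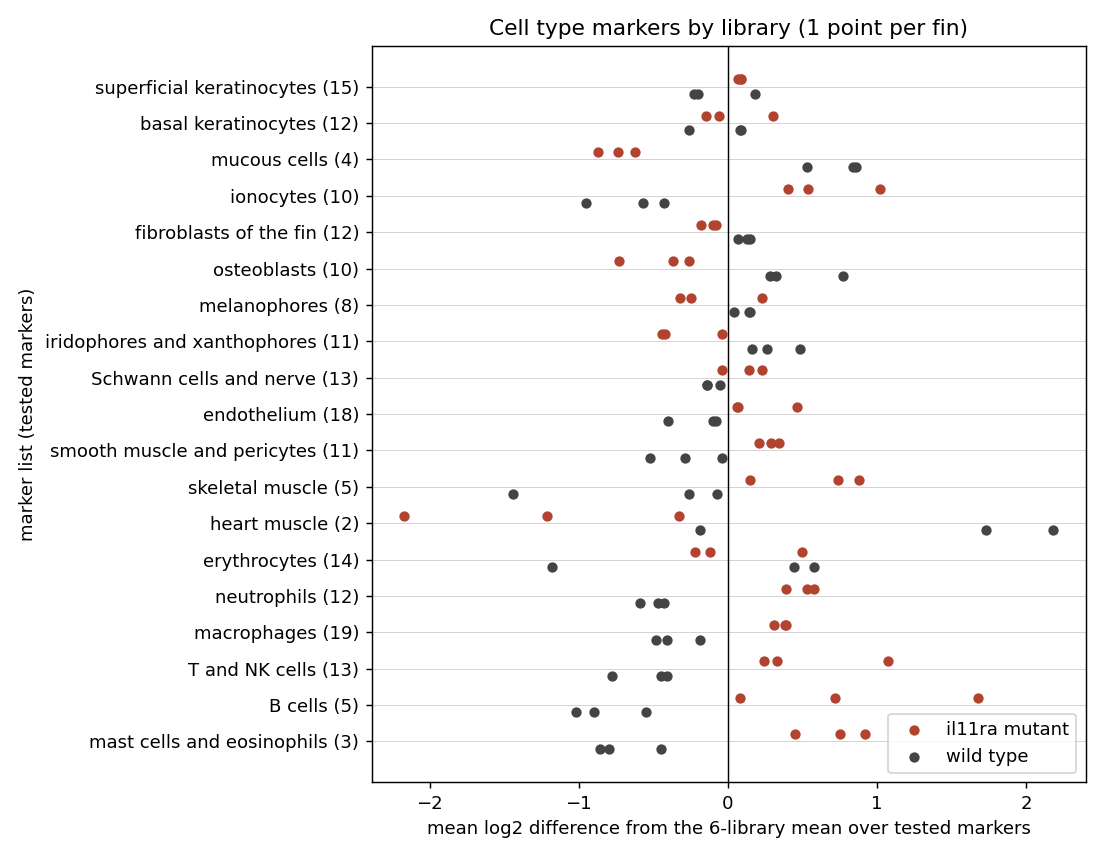
Each point is 1 fin, il11ra mutant (red, upper of each pair) or wild type (grey, lower), at the mean log2 difference of that fin from the 6-library mean over the tested markers of a cell type, with the number of tested markers in brackets. All 3 mutants lie right of all 3 wild types for ionocytes, Schwann cells, endothelium, smooth muscle, skeletal muscle, neutrophils, macrophages, T and NK cells, B cells and mast cells, and left of them for mucous cells, fibroblasts, osteoblasts, iridophores with xanthophores and the 2 heart muscle markers.

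Contractile and vascular genes gave a smaller signal. Smooth muscle and pericyte markers rose in 4 of 11 and fell in 1. Endothelial markers rose in 6 of 18 and fell in 0 in the limma fit (also 0 at an unadjusted p under 0.05), with 3 higher without mutant replicate 3 and summed levels of 2693 to 3411 in mutants, against 2052 to 2369 in wild types. acta2, smooth muscle actin, had 387, 207 and 214 normalized counts in mutants, against 54, 57 and 73 in wild types (log2 fold change 2.07 ± 0.25 SE, adjusted p = 0.00121). The myosin light chain kinase mylka had 289, 153 and 211, against 79, 91 and 98 (1.23 ± 0.22). The endothelial gene plvapb had 625, 545 and 622 in mutants and 306, 383 and 384 in wild types (0.74 ± 0.11). The most abundant mural marker, notch3, had 1688, 1398 and 1378 in mutants and 1572, 1376 and 1271 in wild types. Across all 66 actin and contractile genes 7 rose and 10 fell, both under the background, and 6, 5 and 6 fell without mutant replicate 1 and wild-type replicates 2 and 3. Tubulins fell in 8 of 23 and rose in 1 (median -0.36), and the falls included the microtubule destabiliser stmn1b, with 66, 117 and 103 in mutants, against 353, 265 and 325 in wild types (-1.74 ± 0.22). The tubulin tubb5 had 483, 536 and 561, against 842, 797 and 864 (-0.66 ± 0.09).

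Few genes of oxidative phosphorylation passed the test. Oxidative phosphorylation had 7 of 111 genes higher and 4 lower, Glycolysis 8 of 53 higher and 9 lower, the citrate cycle 4 of 29 each way, and Proteasome 7 of 48 higher and 5 lower, where 4 of the 7 were the chromosome 19 immunoproteasome genes. Oxidative phosphorylation had 4, 3 and 3 genes higher without mutant replicates 1, 2 and 3 and 4, 2 and 2 without wild-type replicates 1, 2 and 3, and 1 to 3 lower with any library left out. The citrate cycle had 2 higher without mutant replicate 3 and wild-type replicates 2 and 3, and 1 to 3 lower with any library left out. Proteasome had 2 higher without any of the mutants or wild-type replicate 3 and 4 without wild-type replicate 1, and 3 lower without mutant replicates 2 and 3 and wild-type replicate 3. Glycolysis had 5 higher without mutant replicate 3 or wild-type replicate 3, and 5 lower without wild-type replicate 1. cox4i2, an oxygen-regulated cytochrome oxidase subunit, stood out with 122, 110 and 93 normalized counts in mutants, against 35, 17 and 46 in wild types (log2 fold change 1.80 ± 0.34 SE, adjusted p = 0.00616). The gluconeogenic gene fbp1a had 420, 386 and 370 in mutants and 197, 188 and 232 in wild types (0.93 ± 0.11). The enolase eno1b had 56, 69 and 46, against 118, 107 and 98 (-0.92 ± 0.19).

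Genes of the mevalonate branch were lower in mutants. All 20 genes of Terpenoid backbone biosynthesis had negative fold changes and 9 fell, with a median log2 fold change of -0.36, among them acat2 with 129, 203 and 204 normalized counts in mutants, against 314, 287 and 302 in wild types (-0.78 ± 0.18 SE, adjusted p = 0.0121). Of 36 cholesterol genes 8 fell (22.2%) and 5 rose (13.9%). The rises held the uptake receptor ldlra, with 328, 250 and 208 in mutants and 104, 108 and 119 in wild types (1.22 ± 0.17). The sterol enzyme gene hsd17b7 had 782, 444 and 328, against 136, 163 and 164 (1.65 ± 0.28). The lower count of the cholesterol list was 4 without mutant replicates 1 and 3, and 3 and 2 without wild-type replicates 1 and 2. In these last 2 fits 11.9% and 9.93% of all tested genes were lower, so the cholesterol list was under the background. The terpenoid count was 4 without mutant replicate 1, where 13.8% of all tested genes were lower, and 5 without wild-type replicates 1 and 2. Arachidonic acid metabolism, picked after its count was seen, had 17 of 40 genes higher and 5 lower, among them the thromboxane synthase tbxas1, with 277, 163 and 158 in mutants, against 45, 51 and 66 in wild types (1.83 ± 0.25). Its lower count was 8 without mutant replicate 2.

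Stress and folding genes had rises and falls side by side. In the endoplasmic reticulum list 13 of 53 fell and 9 rose, and among cytosolic and mitochondrial chaperones 14 of 54 fell and 6 rose, while the TRiC chaperonin and prefoldin list had 2 of 19 lower and 0 higher in limma (also 0 at an unadjusted p under 0.05). Without mutant replicates 2 and 3 and wild-type replicates 1 and 3 no gene of the chaperonin list was called. The endoplasmic reticulum list had 7, 8 and 8 lower without mutant replicate 3 and wild-type replicates 1 and 2. In these fits 13.0%, 11.9% and 9.93% of all tested genes were lower. The mean of the chaperone list was -0.08, 0.06 and 0.15 in mutants, against 0.14, -0.13 and -0.15 in wild types, beside its median fold change of -0.12. That list had 3 higher without mutant replicates 2 and 3 and wild-type replicate 3. The inducible chaperone gene hsp70l rose, with 50, 176 and 135 normalized counts in mutants and 20, 24 and 19 in wild types (log2 fold change 2.29 ± 0.43 SE). The small heat shock protein gene hspb1 also rose, with 79, 121 and 103, against 36, 34 and 33 (1.51 ± 0.21). The folding factor creld2 of the endoplasmic reticulum fell, at 153, 197 and 182 in mutants, against 326, 292 and 276 in wild types (-0.75 ± 0.12, adjusted p = 0.00363). Of 41 hypoxia targets 11 rose (26.8%) and 8 fell (19.5%). Among them epas1a, which encodes a hypoxia-inducible factor, rose, with 693, 276 and 382 in mutants, against 40, 36 and 42 in wild types (3.38 ± 0.30, adjusted p = 0.000398). The carbonic anhydrase ca9, a classic target, fell, with 26, 41 and 37 in mutants and 112, 114 and 137 in wild types (-1.79 ± 0.22). Nrf2 and redox genes rose in 13 of 56 (23.2%), close to the background, and fell in 5 (8.93%). Only 7 rose without mutant replicate 1 or wild-type replicate 2, where 16.2% and 14.9% of all tested genes rose. The lower count of Nrf2 and redox genes was 3 without mutant replicate 1 and wild-type replicates 1 and 3. mgst1.2, a microsomal glutathione transferase, had 387, 348 and 377 in mutants, against 160, 144 and 155 in wild types (1.27 ± 0.10, adjusted p = 0.000245).

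Among all genes tested, 161 were called with more than an 8-fold rise and 56 with more than an 8-fold fall. Besides the MHC and immunoproteasome genes and cldnc, the 10 largest rises among genes averaging 100 or more, with genes known only by a clone name left out, were irge4, an immunity-related GTPase, with 476, 216 and 300 normalized counts in mutants and 2, 0 and 4 in wild types, and ggact.1, with 311, 290 and 272, against 2, 5 and 4. They also included msh4, a meiotic mismatch repair homolog, with 301, 135 and 157, against 5, 4 and 2. The largest falls, chosen in the same way, included several genes of pigment and nerve biology. gch2, an enzyme of pteridine synthesis in xanthophores, had 4, 21 and 9 in mutants, against 287, 192 and 181 in wild types (log2 fold change -4.39 ± 0.49 SE, adjusted p = 0.000931). In the iridophore and xanthophore list 4 of 11 tested markers fell and 3 rose. With gch2, its markers aox5 (-1.81 ± 0.35) and bco1 (-1.62 ± 0.21) fell. The most abundant marker of that list, gpnmb, rose with 492, 412 and 351, against 317, 324 and 286 (0.42 ± 0.13). The call of gpnmb was lost with any library but mutant replicate 3 left out, at an adjusted p in limma between 0.0687 and 0.111. tyrp1b, a melanin synthesis gene and the most abundant melanophore marker, had 330, 366 and 309, against 284, 265 and 234 (0.36 ± 0.11), with an adjusted p in limma of 0.0596, 0.1, 0.0762 and 0.112 without mutant replicates 1 and 2 and wild-type replicates 2 and 3. gap43, a growth cone protein of regrowing axons, had 35, 49 and 29 in mutants, against 171, 219 and 188 in wild types (-2.35 ± 0.22, adjusted p = 0.00045). bcan, the neural proteoglycan brevican, had 73, 6 and 19, against 370, 407 and 425 (-4.20 ± 0.71). In the Schwann cell and nerve list 3 of 13 rose and 2 fell. Its most abundant marker, the myelin gene cnp, had 1022, 967 and 957, against 1426, 1185 and 1129 (-0.34 ± 0.10), and the adjusted p in limma was 0.077, 0.0979, 0.0613 and 0.0614 without mutant replicates 2 and 3 and wild-type replicates 1 and 2. Other large falls with a gene name were jac4 (1, 19 and 5 in mutants, against 532, 419 and 349), col28a2a (15, 121 and 31, against 379, 403 and 541) and the coagulation factor f5 (66, 176 and 97, against 590, 607 and 473). Further falls were spon2a (17, 71 and 107, against 324, 379 and 317) and arhgap32a (31, 79 and 44, against 275, 359 and 318). ddx43 was at 0, 0 and 93 in mutants and 123, 268 and 129 in wild types, a call that was lost with any library but mutant replicate 3 left out, at an adjusted p in limma between 0.0786 and 0.107.

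Calls were spread over the genome. The share of tested genes called higher ran from 14.7% on chromosome 25 to 24.7% on chromosome 4, and the share called lower from 9.81% on chromosome 4 to 21.2% on chromosome 17. Chromosome 4 was thus at both ends, with 199 of 805 genes higher and 79 lower and a median log2 fold change of 0.16. Around the mutated gene on chromosome 10, 25 of 115 tested genes within 5 Mb of il11ra rose and 26 fell, shares of 21.7% and 22.6%. il6st, described above, is also on chromosome 10, from 5788620 to 5821584, but outside this window. Over all of chromosome 10 the shares were 21.2% and 17.0%.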

How the data were processed

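Polyadenylated RNA of single caudal fins was sequenced with TruSeq Stranded mRNA libraries and single-end reads. Per the labels, the authors used FastQC, Trimmomatic 0.39, STAR 2.7.3a on GRCz11 (danRer11), featureCounts 1.6.5 from Subread and DESeq2 1.26, and the strand setting and annotation release are not given in the sources used here. The deposited fin values, recorded here as a signal, are read counts per gene that the authors divided by a size factor per library and rounded to whole numbers, so no count model was applied. High values lie close together, and whether they were transformed further was not settled here. Annotation columns of the same table gave symbols, positions and KEGG terms, and the Jak-STAT term was not among the KEGG terms used here. The ventricle table was not used.

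Genes averaging at least 10 were fitted as log2(value + 1) in limma 3.58.1 (R 4.3.3), with a mean-variance trend and Benjamini-Hochberg adjustment over all tested genes at 0.05, and the script was tested on simulated data. No gene set test was run: 35 gene lists, 19 marker lists and 44 KEGG terms, whose genes can overlap, are described by counts and medians. The members and lists were chosen with earlier results of these data known. In each list up to 4 called genes with the largest fold change were named, if they averaged at least 50 and genotypes did not overlap, and the 10 largest rises and falls averaged at least 100, with genes known only by a clone name left out. The 49 published regeneration genes were left out of both. The genes il11ra, il11a, il11b, il6st, stat3, socs3a and socs3b and the most abundant marker of each cell type were named whatever their values. The labels give replicate numbers but no batches, and p-values measure the spread between these fins. Alternatives were other pseudocounts, filters, normalizations and variance settings, a replicate block and leaving out each library.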

Additional observations from a re-analysis of the deposited data

How the results depend on the processing

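Among all tested genes 3279 rose and 2853 fell, and with 1 library left out 2492 to 2813 rose and 1662 to 2507 fell. The lower counts were 1662 without wild-type replicate 2 and 1794 without wild-type replicate 3. With each gene counted once, 867 members of the described KEGG terms were called with all fins. Without wild-type replicate 2 that number was 574 (range 574 to 746). Called members of the gene lists, each again counted once, were 666 as reported and 445 to 619 with 1 library left out. Quantile normalization gave 3093 higher and 3547 lower and upper-quartile factors 3042 and 3385, with the median of all genes at -0.060 and -0.063. Cyclic loess normalization, chosen after seeing the data, gave 3355 and 2988. Of 83 list and term counts of 10 or more, 35 moved by over 1.5 times in no alternative and 43 moved only when a library was left out. Of 275 called named genes 66 lost the call in some alternative, 31 of them in one that kept every library. The fold change of fn1b, the highest gene, was 0.00 after quantile normalization, which sets the highest gene of every library to 1 value and so gives no check of it. The replicate block gave 3108 higher and 2595 lower, and same-numbered fins deviated together by correlations of 0.03, 0.09 and -0.08, so the numbers were not taken as pairs. For each library, depth is known only as a sum of normalized counts. The paper states a minimum number of reads per library, which lies above all of these sums. Low genes have the widest spread.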

Other observations

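A small class of genes was close to on or off between genotypes. There were 16 genes with 50 or more normalized counts in every mutant fin and under 10 in every wild-type fin, and 16 with the reverse, and 1 of each 16 was on chromosome 19. Single fins also departed from their genotype in this class. With 50 or more in every mutant, 7 genes were at 20 or more in wild-type replicate 1 alone, 8 in wild-type replicate 2 alone and 2 in wild-type replicate 3 alone, and with 50 or more in every wild type, 1, 3 and 4 genes were at 20 or more in mutant replicate 1, 2 or 3 alone.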
